A study of Mus musculus with 12 samples.

Results

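The genes of the cytotoxic granule and of natural killer (NK) recognition were followed in regulatory T cells (Tregs) of mouse spleen and perigonadal fat. They are 3 granzymes (Gzma, Gzmb, Gzmk), perforin (Prf1), the granule membrane protein Nkg7, the NK receptors Klrk1, Klrd1 and Klrb1c, and both chains of CD8 (Cd8a, Cd8b1). All probes that the platform annotation gives one of these 10 symbols were taken, which yielded 16 of the 45281 probes and 9 of the 10 genes, and Gzma was not analysed here. Of these probes 10 passed the filter on detection (3 or more of the 12 arrays with a detection p-value under 0.05), and they covered 8 genes of the 10025 tested.

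Every mouse was of strain C57BL/6, was fed chow and carried the Foxp3-YFP-Cre allele, which drives Cre in Foxp3-expressing cells. The controls carried Foxp3-YFP-Cre alone, and the animals labelled T-bet knockout also carried a floxed Tbx21, the gene for T-bet. Spleen control, spleen knockout, fat control and fat knockout had 3 arrays each. The ages of the mice and the number pooled per array were not given in the sources used here, so p-values reflect how far these arrays scatter, and that scatter may be technical. Levels below are normalized log2 intensities of 1 probe, comparable between arrays but not between probes.

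Cytotoxic lymphocytes kill through granules: perforin opens the membrane of the target cell and granzymes, a family of serine proteases, enter and cleave proteins that set off cell death. NK lectin receptors such as NKG2D (Klrk1) and the CD94 chain (Klrd1) read stress ligands or MHC molecules on other cells, and in C57BL/6 mice the product of Klrb1c is NK1.1. T-bet and its relative Eomes are transcription factors of the T-box family known to promote granzyme and perforin expression in NK and CD8 T cells. Tregs carry no CD8 in their classical form, while activated Tregs are known to make granzyme B.

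The sequences before the starts of Gzmb, Gzmk and Nkg7 are shown because the study removed a T-box factor and these 3 hold the core of a T-box site. They are RefSeq windows of 250 bases on GRCm38.p6, in the direction of transcription, with matches in capitals to the T-box core TCACAC, the AP-1 motif TGANTCA and the Runx motif TGTGGT on either strand. The motifs were chosen with the sequences in view, and none of the matches shown overlaps another.
Gzmb, chr14:56262335-56262584, minus strand: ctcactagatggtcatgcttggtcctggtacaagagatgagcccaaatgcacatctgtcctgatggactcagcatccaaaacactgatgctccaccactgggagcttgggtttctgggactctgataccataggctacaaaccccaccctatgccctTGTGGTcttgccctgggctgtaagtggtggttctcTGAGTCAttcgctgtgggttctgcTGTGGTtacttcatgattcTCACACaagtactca
Gzmk, chr13:113180966-113181215, minus strand: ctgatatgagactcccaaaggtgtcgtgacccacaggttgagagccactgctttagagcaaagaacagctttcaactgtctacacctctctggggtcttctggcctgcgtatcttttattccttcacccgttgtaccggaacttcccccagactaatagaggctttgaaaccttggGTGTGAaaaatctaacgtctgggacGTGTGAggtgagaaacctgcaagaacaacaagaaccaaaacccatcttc
Nkg7, chr7:43436888-43437137, plus strand: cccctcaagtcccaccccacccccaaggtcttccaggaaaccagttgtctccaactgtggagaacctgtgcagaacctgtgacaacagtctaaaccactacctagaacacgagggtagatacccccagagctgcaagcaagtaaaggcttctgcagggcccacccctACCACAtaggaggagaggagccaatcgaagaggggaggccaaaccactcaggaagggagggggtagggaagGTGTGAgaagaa
In Gzmb the T-box core spans bases 15 to 10 before the start, after an AP-1 match at 58 to 52 and Runx matches at 93 to 88 and 34 to 29. In Gzmk 2 T-box cores on the opposite strand span bases 74 to 69 and 49 to 44, and Nkg7 has a core at 12 to 7 and a Runx match at 83 to 78, both on the opposite strand. Of the 8 genes with a window in the table, Gzma among them, Prf1, Klrk1, Klrb1c and Gzma held a Runx match and no T-box core, and Cd8a held none of the 3 motifs. Over all 32851 windows of that length 12.3% held the T-box core, 6.75% the AP-1 motif and 14% the Runx motif, and the matches are a description of letters only.

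Between 27.0 and 40.9% of probes were detected per array. The lowest detected signal of an array lay between 4.83 and 5.53, which is the level below which the probes carry no order. Of the defining markers of the labelled cell type, Foxp3 was detected in all 12 arrays at 6.39 to 9.23 and Cd4 at 7.63 to 9.69. The summed linear level of 10 Treg and CD4 T cell markers was 10273 to 11350 in the spleen arrays, 7753 to 8822 in the fat controls and 9078 to 10524 in the fat knockouts, and in the mean of both genotypes limma called 3 of these genes higher and 3 lower in fat. The targeted gene Tbx21 read 4.54 to 5.74 in the spleen arrays and 4.94 to 7.57 in the fat arrays, with 2 of 3 knockout arrays of fat detected. It does not check the labels, since it is not known here whether its probe falls inside the deleted stretch. Markers of myeloid cells also differed between the tissues: the summed linear level of 13 macrophage and monocyte genes was 366 to 1383 in the spleen arrays and 3744 to 14791 in the fat arrays. In these bulk samples a change in the number of cells of a type and a change in RNA per cell cannot be told apart.

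Granzyme B was the member that separated the tissues. Gzmb had 1 probe, which stood at 4.51, 4.52 and 4.75 on the spleen control arrays and at 4.59, 4.51 and 4.61 on the spleen knockout arrays. On the fat control arrays it stood at 5.83, 5.83 and 6.56, and on the fat knockout arrays at 7.60, 6.70 and 7.57. The probe was undetected in all 6 spleen arrays and detected in all 6 fat arrays, and no fat array overlapped a spleen array. Groups that do not overlap were found for 26.1% of all genes in controls and 26% in knockouts. It passed the filter through the fat arrays alone, so in any tissue comparison it could hardly be lower in fat. Before correction for the background of each array the deposited intensities were 84.1 to 136 in spleen and 117 to 310 in fat, and these ranges did overlap.

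In control mice Gzmb rose in fat by 1.48 on the log2 scale (SE 0.34, 3 arrays per group, limma adjusted p 0.0225). Taken against the lowest detected signals of the spleen arrays the rise was at least 2.25-fold. Within the 3 slides, each of which held 1 array of every group, the difference was 1.31, 1.31 and 1.81. Of 25 alternatives 17 kept the call. It was not made when spleen control array 1 was left out (limma adjusted p 0.0849), nor for spleen control array 2 (0.0806) or fat control array 3 (0.0743), and without background correction the difference was 0.58 (0.0799).

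In the libraries labelled T-bet knockout Gzmb rose in fat by 2.72 (SE 0.34, limma adjusted p 0.000738), at least 4.22-fold. The slides gave 3.01, 2.19 and 2.96, and the call was kept in all 25 alternatives (adjusted p 0.000325 to 0.00806). Averaged over both genotypes the rise was 2.10 (SE 0.24, limma adjusted p 0.00013).

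Among the fat arrays Gzmb was higher in each knockout than in any control, by 1.22 on average (SE 0.34, 95% interval 0.48 to 1.95). The slides gave differences of 1.77, 0.87 and 1.01. With all genes taken into account the difference did not pass (p 0.00362, limma adjusted p 0.399). Such a separation was found for 8.75% of all genes in this comparison and for 8.84% in the spleen, and limma called 1 gene of 10025, a share of 0.00998%. In the spleen the knockouts and controls differed by −0.03 (95% interval −0.76 to 0.71), at levels that were not well above background. The knockout difference in fat minus that in spleen was 1.24 (95% interval 0.20 to 2.28, limma adjusted p 0.999). The order of the Gzmb levels was thus fat knockout, fat control and then both spleen groups, in which only the steps from fat to spleen passed the test. The direction of those steps was largely fixed, since the probe was kept through fat arrays alone. The step in controls was called in 17 of 25 alternatives.

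**Figure D1:**
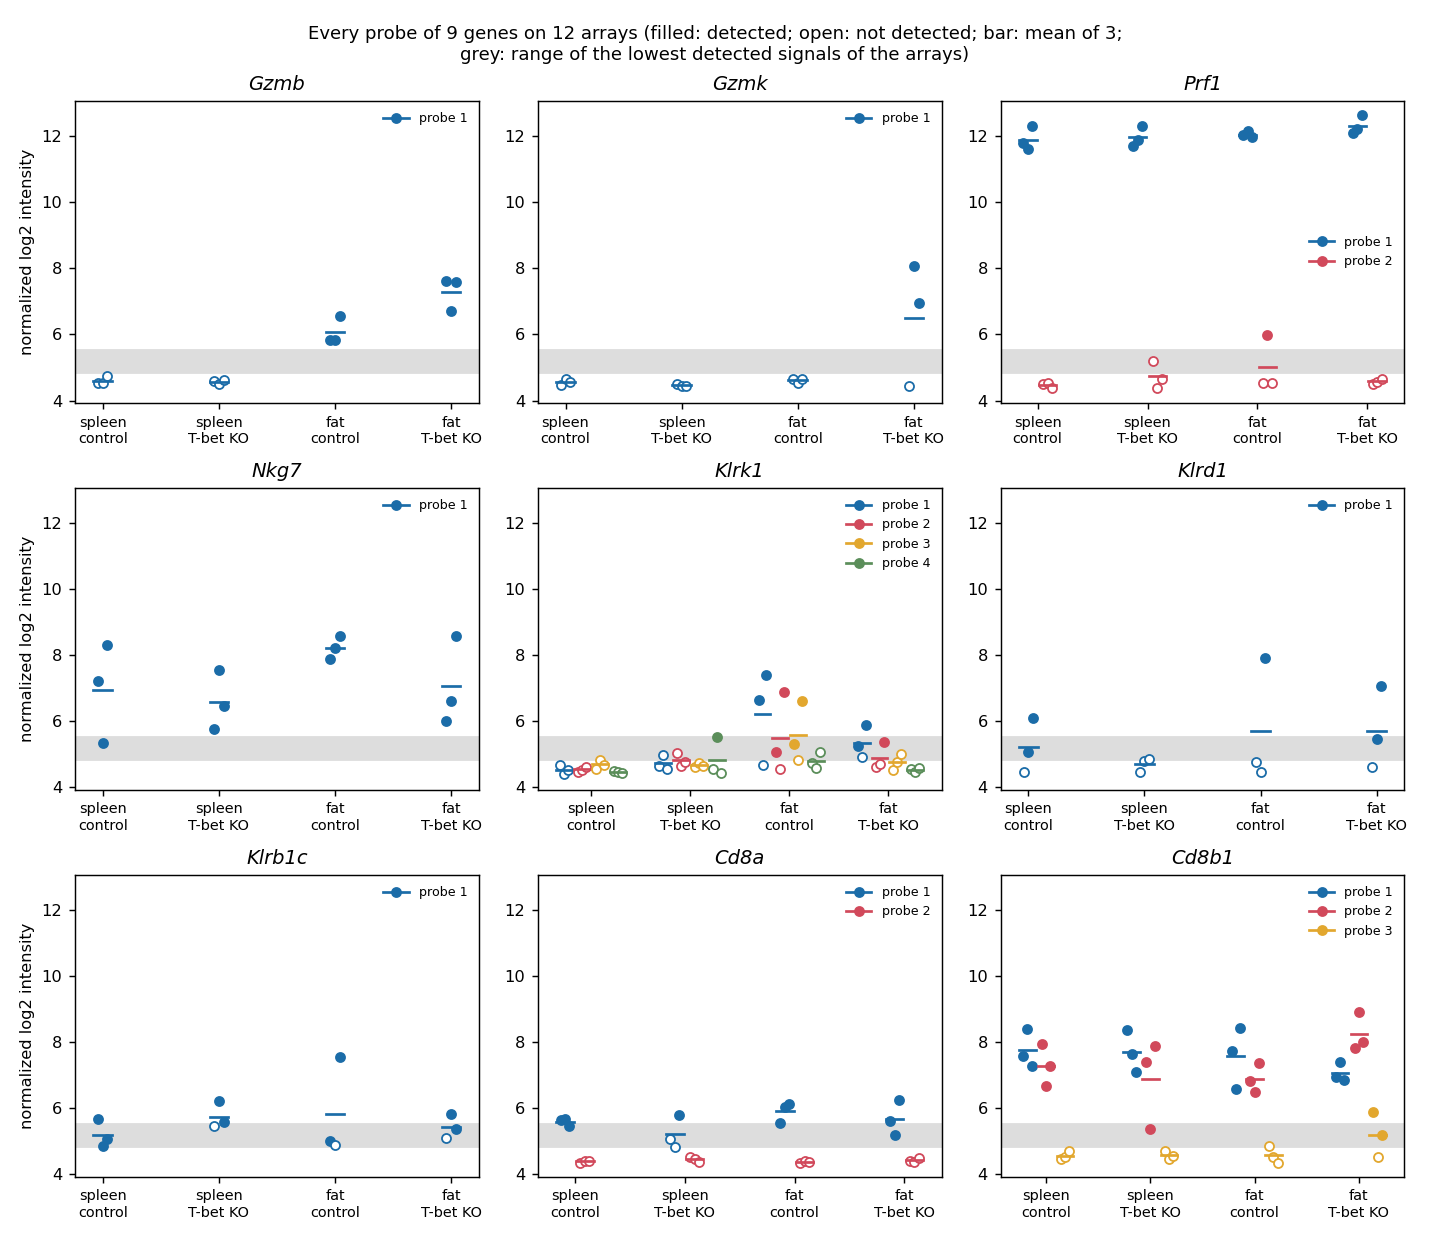
Normalized log2 intensity (vertical axes) of each of the 16 probes in the 4 groups, one panel per gene; filled points were detected, open points were not, bars are means of 3 arrays and the grey band runs from 4.83 to 5.53, where the weakest detected probes of the arrays lie. All 6 fat points of Gzmb lie above the band, between 5.83 and 7.60, and all 6 spleen points below it.

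Granzyme K, a granzyme of memory-type T cells and NK cells, showed a different pattern. Its 1 probe was undetected in 10 of 12 arrays, at 4.43 to 4.65, and failed the filter. The fat knockouts gave 4.43, 8.06 and 6.95, so arrays 2 and 3 were far above every other array and array 1 was undetected. A fit without the filter gave a difference between knockout and control in fat of 1.88 (SE 0.71, limma adjusted p 0.907) and between fat and spleen in the knockouts of 2.02 (limma adjusted p 0.247). Gzmb does not follow this split, since fat knockout array 1 held its highest level, 7.60.

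Of 7 other granzymes on the platform 1 passed the filter, Gzmc. Spleen arrays were undetected throughout, with controls at 4.72, 4.74 and 4.64 and knockouts at 4.63, 4.78 and 4.99. All fat arrays were detected, with controls at 5.61, 6.69 and 6.52 and knockouts at 6.13, 5.55 and 5.89. Like Gzmb it passed the filter through fat arrays alone and could hardly come out lower there. Gzmc rose in fat controls by 1.57 (SE 0.34, limma adjusted p 0.0171), at least 2.59-fold, a call not made without spleen control array 1 or 2 or fat control array 2 or 3 (0.0534 to 0.0625). In the knockouts the difference was 1.06 and did not pass (limma adjusted p 0.0938). Between genotypes in fat it differed by −0.42 (95% interval −1.15 to 0.32).

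Perforin, which forms the pore, was bright and even on its main probe. Prf1 probe 1 stood at 11.78, 11.60 and 12.29 on spleen control arrays and at 11.70, 11.89 and 12.30 on spleen knockout arrays. Fat controls stood at 12.01, 12.13 and 11.97 and fat knockouts at 12.09, 12.20 and 12.65. These groups overlapped throughout. The difference between fat and spleen was 0.15 in controls (95% interval −0.53 to 0.83) and 0.35 in knockouts (95% interval −0.33 to 1.03), and between genotypes it was 0.27 in fat (95% interval −0.41 to 0.95). The second Prf1 probe was detected in 1 of 12 arrays only, fat control array 2, and ran from 4.38 to 5.99. The probes of Prf1 thus disagreed on whether the gene was detected at all, and which of them reports the transcript was not tested.

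Nkg7, a protein of the granule membrane needed for granule release, was detected in all 12 arrays but scattered within groups. Spleen controls gave 7.21, 5.35 and 8.30 on its 1 probe, and spleen knockouts 5.76, 7.55 and 6.45. Fat controls gave 7.89, 8.20 and 8.58, and fat knockouts 6.01, 6.62 and 8.59. The fat controls were close together and high, while the other 3 groups each spanned more than the distance between group means. Fat minus spleen was 1.27 in controls (SE 0.79, limma adjusted p 0.397) and 0.48 in knockouts (limma adjusted p 0.796). Knockout minus control in fat was −1.15 (95% interval −2.87 to 0.57, limma adjusted p 0.932), and on slide 3 alone it was 0.01.

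Klrk1, which encodes the activating receptor NKG2D, was uneven among the fat arrays. Its brightest probe was undetected in all 6 spleen arrays (4.42 to 4.98). It passed the filter through the fat arrays alone, so it could hardly come out lower in fat. Fat controls gave 6.63, 4.67 and 7.39 and fat knockouts 5.25, 4.91 and 5.89, with array 2 undetected in both groups. Fat control array 3 was the highest of the 12 arrays for this probe and for probe 2 (6.87) and probe 3 (6.63), while probe 4 was detected in spleen knockout array 2 alone, at 5.53.

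Fat minus spleen for Klrk1 was 1.69 in controls (SE 0.57, limma adjusted p 0.105) and 0.62 in knockouts (limma adjusted p 0.604). Averaged over both genotypes the difference was 1.16 (limma adjusted p 0.0714), a value that passed with cyclic loess (0.0484) and without fat control array 2 (0.00247). Fat control array 2, where the gene was undetected, was the lowest of the fat controls, so leaving it out could only raise their mean. Klrk1 then rose in controls by 2.47 (limma adjusted p 0.00422). Without fat control array 3, which held its highest level, the difference was 1.11 (limma adjusted p 0.27), and without array 1 it was 1.49 (0.224). The Klrk1 probe with the next highest mean gave 0.96 in controls and 0.07 in knockouts. Knockout minus control in fat was −0.88 (95% interval −2.11 to 0.36).

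The other NK receptors followed single arrays more than groups. Klrd1, the CD94 chain that pairs with NKG2 receptors and a neighbour of Klrk1 on chromosome 6, gave 4.48, 5.06 and 6.10 on spleen control arrays and was undetected in the spleen knockouts. Fat controls gave 4.75, 4.47 and 7.93 and fat knockouts 4.61, 5.46 and 7.07, so it was detected in 1 fat control and 2 fat knockouts. Klrb1c, which encodes NK1.1, gave 5.66, 4.86 and 5.08 on spleen control arrays and 5.45, 6.22 and 5.57 on spleen knockout arrays. Its fat controls stood at 5.01, 4.88 and 7.55 and its fat knockouts at 5.10, 5.81 and 5.38.

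Fat control array 3 again held the highest level of both genes, and the groups overlapped in every comparison. Fat minus spleen for Klrd1 was 0.50 in controls (95% interval −1.36 to 2.37) and 1.01 in knockouts (95% interval −0.86 to 2.87). For Klrb1c these differences were 0.61 (95% interval −0.71 to 1.94) and −0.31 (95% interval −1.64 to 1.01). In controls both intervals include a difference as large as the 1.48 of Gzmb.

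The CD8 chains, which mark CD8 T cells, gave no sign of a shift shared by their probes. Cd8a probe 1 lay near the detection limit, with spleen controls at 5.65, 5.67 and 5.46 and spleen knockouts at 5.07, 4.82 and 5.80. Fat controls stood at 5.55, 6.05 and 6.14 and fat knockouts at 5.60, 5.18 and 6.24, and probe 2 was undetected in all 12 arrays. Fat minus spleen for Cd8a was 0.32 in controls (95% interval −0.48 to 1.13) and 0.44 in knockouts (95% interval −0.36 to 1.25).

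Cd8b1, the neighbour of Cd8a on chromosome 6, was detected in all 12 arrays by each of 2 probes. Probe 1 ran from 7.28 to 8.38 in the spleen controls, 7.10 to 8.37 in the spleen knockouts, 6.59 to 8.41 in the fat controls and 6.84 to 7.40 in the fat knockouts. Probe 2 ran from 6.67 to 7.93, 5.36 to 7.88, 6.49 to 7.36 and 7.82 to 8.92 in the same order, with the fat knockouts above all fat controls. Fat minus spleen in controls was −0.17 on probe 1 and −0.39 on probe 2. In knockouts it was −0.64 on probe 1 and 1.37 on probe 2 (95% interval 0.06 to 2.68, limma adjusted p 0.265 over all kept probes). Knockout minus control in fat was −0.52 on probe 1 (95% interval −1.61 to 0.57) and 1.35 on probe 2 (p 0.0443, limma adjusted p 0.766 over all kept probes). The probes thus pointed opposite ways, and neither passed. Over all kept probes limma called 4.66% in the control tissue comparison, 4.53% in that of the knockouts, 12.6% in their mean and 0.00982% between genotypes in fat, and of the 10 probes of members it called 1, 1, 1 and 0. The third Cd8b1 probe was detected in 2 arrays, fat knockouts 1 and 3, at 5.88 and 5.19.

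Over the 8 members that passed the filter limma called 1 in control mice, Gzmb, where 6.44% of all genes were called. It called the same 1 in knockouts, where 5.78% of all genes were called, and the same 1 in the mean of both genotypes, where 15.7% were called. None was called between genotypes in fat, in the spleen or over both tissues, nor in the difference of the knockout effect between tissues. In these 4 comparisons the shares over all genes were 0.00998%, 0%, 0% and 0%. At an unadjusted p below 0.05 limma gave 1 member in fat (6.93% of all genes), 0 in the spleen (2.18%), 1 over both tissues (4.13%) and 1 in the difference (3.81%), which was Gzmb each time. Between the tissues it gave 2 in controls (20.7%), 1 in knockouts (19.5%) and 2 in their mean (30%), which were Gzmb and, in controls and the mean, Klrk1. The median difference of the members between fat and spleen was 0.56 in controls and 0.46 in knockouts, against −0.06 and −0.08 over all genes, and between genotypes in fat it was −0.31 against 0.01. Gzmb and Klrk1 were kept through fat arrays alone, so these medians are no evidence on direction.

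**Figure D2:**
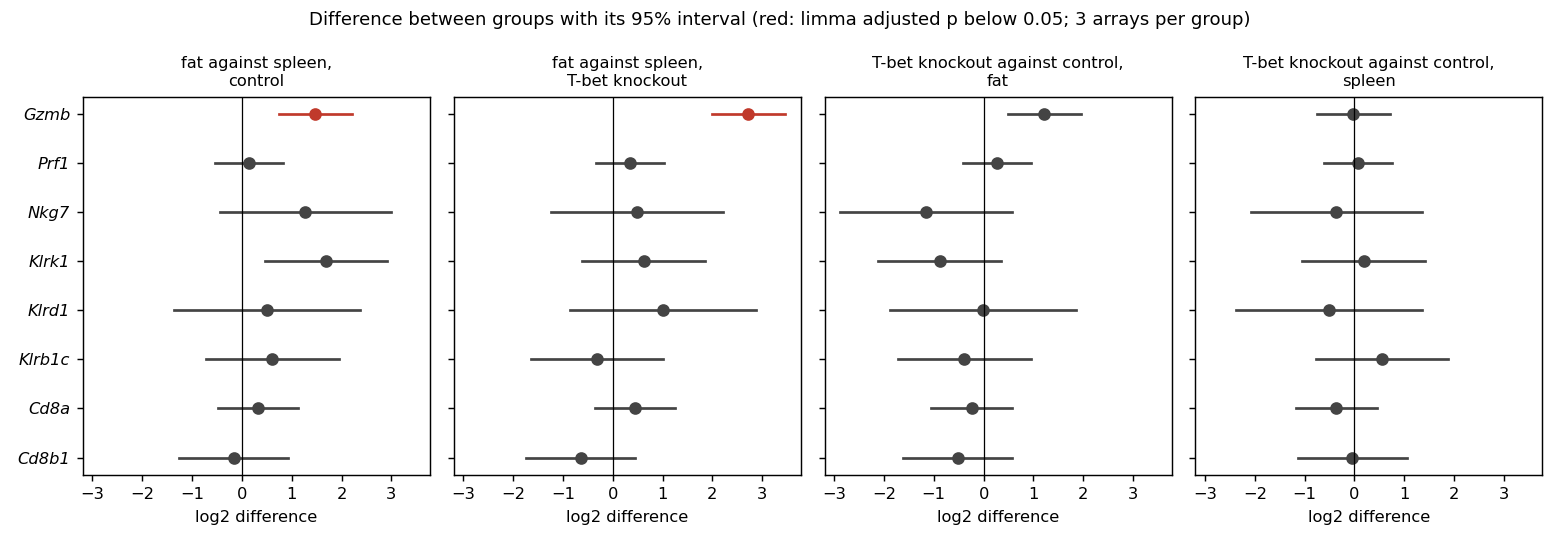
Log2 difference (horizontal axes) of the 8 members that passed the filter in 4 comparisons, with 95% intervals from limma and 3 arrays per group; red marks an adjusted p below 0.05. Gzmb is the member marked, at 1.48 in controls and 2.72 in knockouts, and the intervals of Nkg7 and Klrd1 are the widest.

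The rest of the cytotoxic pathway was read from 8 lists of related genes: other granzymes, granule biogenesis and release, granzyme inhibitors, death ligands and effector cytokines, NK lectin receptors, other NK and cytotoxic receptors, receptor adaptors and transcription factors. Of their 113 genes 81 passed the filter. In control mice 15 rose and 4 fell in fat, 23.5% of the 81 against 6.44% of all genes, with a median difference of 0.59. In the knockouts 17 rose and 4 fell in fat, 25.9% against 5.78%, with a median of 0.62. Over all genes the median was −0.06 in controls and −0.08 in knockouts. The lists were chosen with earlier results of these data known, so the shares are no evidence of an excess in this pathway. They also hold genes of macrophages, such as Cd63 and Fcer1g, whose part was not tested. Leaving out spleen control array 1 brought the control count of 19 to 12, and leaving out spleen knockout array 1 brought the knockout count of 21 to 11. Of the 81 genes 10 were detected in no spleen array, so they passed through fat alone and could hardly fall, and none passed through spleen alone. These 10 gave 2 of the 15 rises in controls and 2 of the 17 in knockouts, and since they are in the medians too, the medians are no evidence on direction. Between genotypes limma called none of the 81 in fat or spleen, with 8 and 1 at an unadjusted p below 0.05.

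Granule genes moved in both directions between the tissues. Of 16 genes of granule biogenesis and release 3 rose and 2 fell in controls and 4 rose and 1 fell in knockouts. Cd63, a tetraspanin of lytic granule and lysosome membranes, ran from 5.23 to 6.23 in the spleen controls and from 8.98 to 10.21 in the fat controls. It rose by 3.81 (SE 0.50, limma adjusted p 0.000871) and in knockouts by 3.14 (limma adjusted p 0.00343). Stx11, a SNARE protein needed for granule release, rose by 2.02 in controls and 1.95 in knockouts (limma adjusted p 0.00489 and 0.00607). Srgn, whose proteoglycan serglycin holds granzymes inside the granule, rose by 1.26 in controls (limma adjusted p 0.0267), a call not made without spleen control array 1 or 2 or fat control array 2 or 3 (0.0646 to 0.104). In knockouts Srgn rose by 1.43 (limma adjusted p 0.0151), a call not followed through the alternatives.

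Igf2r, the mannose 6-phosphate receptor that sorts granzymes to the granule, went the other way. Spleen controls gave 10.47, 10.52 and 10.04 and fat controls 8.23, 7.76 and 7.99. It fell in both genotypes, with a difference of −2.35 in each (limma adjusted p 0.00361 and 0.00385). Lamp2, a lysosome membrane protein, rose by 2.49 in knockouts (limma adjusted p 0.0305), where spleen arrays were spread from 5.80 to 8.94, and the call was not made without spleen knockout array 1 or 2 or any 1 of the fat knockout arrays (0.0554 to 0.0995). In controls Lamp2 differed by 1.38 and did not pass (limma adjusted p 0.214). Other kept probes of Cd63, Stx11 and Igf2r had the same sign in both genotypes, as did those of Srgn in controls and Lamp2 in knockouts. The other Stx11 probe gave 0.49 in controls and 1.90 in knockouts. Cd63 and Lamp2 are also lysosomal genes of macrophages, whose summed markers are given above, and their part was not tested.

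Serpinb9, an inhibitor of granzyme B that protects the cells that carry it, rose beside Gzmb. Spleen controls gave 4.62, 5.55 and 5.08 and fat controls 6.27, 6.89 and 7.23. The knockouts were undetected in spleen and gave 6.63, 6.05 and 7.15 in fat. The rise was 1.71 in controls (SE 0.39, limma adjusted p 0.0217) in a call not made without spleen control array 1 or 3 or fat control array 2 or 3 (0.0559 to 0.0997), and 2.01 in knockouts (limma adjusted p 0.0104, kept in all 25 alternatives). It was 1 of 4 granzyme inhibitors measured and the only one called in either genotype. In the mean of both genotypes 3 of the 4 were called higher and 0 lower, where 15.7% of all genes were called. Serpinb6a differed by 1.48 in controls and 1.24 in knockouts, Serpinb6b by 1.23 and 0.79, and Serpina3f by 0.69 and −0.01.

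Among 10 death ligands and effector cytokines 1 fell and none rose. Lta, the cytokine lymphotoxin alpha, gave 9.89, 9.49 and 9.54 in spleen controls against 5.08, 4.38 and 4.64 in fat controls. Only 1 of 3 fat arrays was detected in each genotype, so the size of the fall is measured against levels mostly at background. The fitted differences were −4.94 in controls and −4.16 in knockouts (limma adjusted p 0.000331 and 0.00107), while its other kept probe gave −0.85 and −0.70 and did not pass. Tnf was undetected in the fat knockouts (4.50 to 4.59) and detected in the fat controls (5.48 to 6.90), a difference of −1.84 that did not pass (limma adjusted p 0.54).

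Among NK lectin receptors 1 was bright in both tissues and others were detected in fat alone. Klrg1, an inhibitory receptor for cadherins, was bright in the spleen at 7.88 to 9.13 and reached 10.62 to 11.55 in fat. It rose by 2.54 in controls and 2.51 in knockouts (limma adjusted p 0.00152 and 0.00185), and both calls were kept in all 25 alternatives. The brightest probes of Klra3, Klra4, Klra7, Klra8 and Klra9, receptors of the Ly49 family for MHC class I, were undetected in all 6 spleen arrays.

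In fat these 5 probes were detected in at least 4 of 6 arrays each, and they passed the filter through fat alone, which fixes the direction in which they could differ. Klra3 gave 5.58, 8.14 and 8.76 in fat controls and 6.62, 6.75 and 8.49 in fat knockouts. Against spleen levels that were not well above background it was higher by 2.88 in controls and 2.75 in knockouts (limma adjusted p 0.0335 and 0.0424), calls kept in 11 and 10 of 25 alternatives, with adjusted p up to 0.101 without fat control array 2 and 0.124 without fat knockout array 3. Its other kept probe gave 0.66 and 0.57 and was not called. Klra9 was higher by 2.55 in knockouts (limma adjusted p 0.038), at least 3.54-fold, kept in 12 of 25 and at 0.119 without spleen knockout array 1. Ly49 genes are near-identical copies, so a probe may take signal from another member, and which of them was expressed is uncertain. Of the 11 measured NK lectin receptors 2 were called in controls and 3 in knockouts. Among the 6 detected in both tissues, which were free to differ either way, Klrg1 was the 1 called in each genotype.

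Other receptors were mixed. Of 14 measured, 1 rose and 1 fell in controls and 1 rose and 2 fell in knockouts. Fcgr3, a receptor for IgG found on NK and myeloid cells, rose by 2.65 in controls (limma adjusted p 0.00362). In knockouts Fcgr3 differed by 1.09 and did not pass (limma adjusted p 0.181). Slamf6, a self-ligating receptor of lymphocytes, gave 9.03, 7.93 and 8.36 in spleen controls and 7.08, 5.52 and 6.63 in fat controls, and was undetected in all 3 fat knockouts. It fell by 2.03 in controls and by 3.86 in knockouts (limma adjusted p 0.0162, at 0.0772 without spleen control array 1, and 0.000353), but 1 of its 2 other kept probes pointed up and neither was called, so its direction rests on 1 probe.

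Tigit, an inhibitory receptor of Tregs and NK cells, rose by 1.56 in knockouts (limma adjusted p 0.0214, at 0.0774 without spleen knockout array 1), and Cd96, which shares a ligand with it, fell by 2.55 (0.0483, kept in 13 of 25 alternatives and at 0.143 without fat knockout array 1). In controls they differed the same way without passing, Tigit by 1.26 (limma adjusted p 0.0541) and Cd96 by −2.29 (0.0682). Fcer1g, the signalling chain of Fc and some NK receptors, rose by 3.29 in controls and 3.05 in knockouts (limma adjusted p 0.00811 and 0.0129, the latter at 0.0619 without spleen knockout array 1), the 1 adaptor of 8 called in these 2 comparisons. Fcgr3 and Fcer1g are also genes of macrophages, whose summed markers are given above, and their part was not tested. Among 5 measured ligands, kept as a list apart, Cdh1, the E-cadherin that Klrg1 binds, rose by 2.65 and 3.07 (limma adjusted p 0.0216 and 0.0109), and Clec2i, a ligand of Klrb1 family receptors, fell by 2.06 in controls (0.0473). The call of Cdh1 was kept in 20 of 25 alternatives in controls (0.0968 without spleen control array 1) and in all 25 in knockouts, and that of Clec2i in 10 of 25 (0.173 without spleen control array 1).

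Transcription factors listed for cytotoxic lymphocytes gave 6 of 17 higher in controls and 7 in knockouts, with none lower in these comparisons. In the mean of both genotypes 8 were higher and 1 lower. The list includes Zbtb7b, which is also among the Treg and CD4 T cell markers. Zeb2, which drives terminal maturation of NK and CD8 effector cells, gave 4.43, 4.65 and 5.22 in spleen controls against 8.75, 8.24 and 9.86 in fat controls. Zeb2 rose by 4.18 in controls and 3.27 in knockouts (limma adjusted p 0.000279 and 0.00142). Among the fat controls it was highest in array 3, which also held the highest macrophage sum, and the part of macrophages was not tested. Gata3 (2.94 and 3.63), Id2 (2.65 and 3.11) and Prdm1 (2.58 and 2.60) rose as well, and these 3 are also known from effector Tregs. The calls of Zeb2, Gata3 and Id2 were kept in all 25 alternatives, and that of Prdm1 in 18 and 21, at 0.0724 without spleen control array 1 and 0.088 without spleen knockout array 1. The other kept Prdm1 probe gave 0.59 in controls and 0.71 in knockouts and was not called. Eomes, the T-box relative of T-bet, rose in knockouts by 2.29 (limma adjusted p 0.032, kept in 14 of 24 alternatives and at 0.103 without spleen knockout array 1), while knockout minus control in fat was 1.94 (limma adjusted p 0.405).

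**Figure D3:**
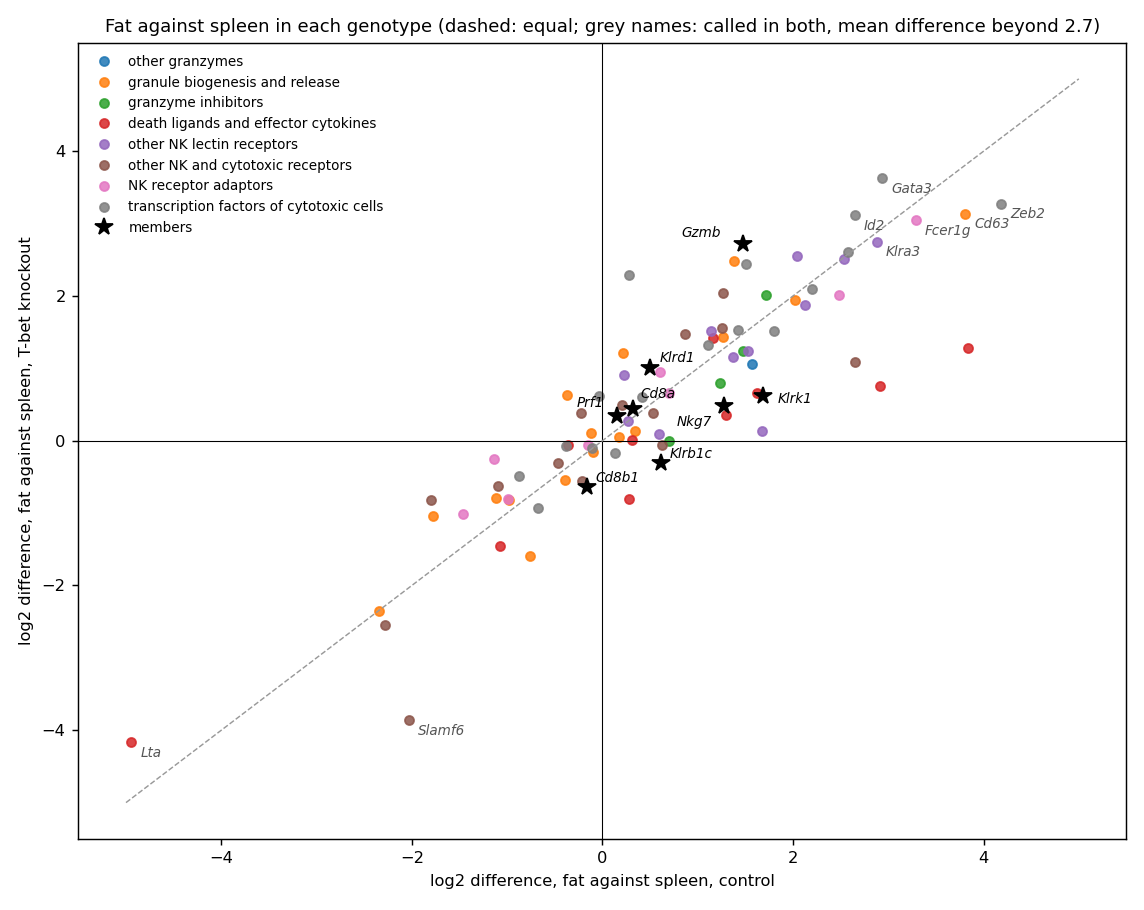
Log2 difference between fat and spleen in controls (horizontal axis) and in knockouts (vertical axis) for 81 related genes, coloured by list, and for the 8 members (stars); the dashed line marks equal differences. Gzmb lies at 1.48 and 2.72 and Klrk1 at 1.69 and 0.62, and Lta lies lowest at −4.94 and −4.16.

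The levels of NK markers that are not members were set beside these results. Of 10 such markers Klrc2 was undetected in every array, and Ncr1, the NKp46 receptor that defines NK cells, was undetected in 11 arrays and read 8.56 in fat knockout array 3. Eomes read 5.58, 6.88 and 8.37 in the fat knockouts, with array 3 again the highest. The summed linear level of the 10 markers, of which 8 passed the filter, was 467 to 1200 in the spleen arrays and 1597 to 3599 in the fat controls, where array 3 was the highest. In the fat knockouts it was 2216 to 2788. Of the 8, limma called 0 in controls, 2 in knockouts and 6 in the mean of both genotypes, all higher in fat. The shares over all genes were 6.44%, 5.78% and 15.7%. Klra4, Klra8, Klra9 and Itga2 were kept through fat arrays alone and could hardly come out lower, so these counts are no evidence on direction. The list includes Tyrobp, an adaptor also used by macrophages, which read 6.42 to 9.42 in spleen and 10.13 to 11.33 in fat. On the linear scale this gene alone is a large part of the sum in fat. Their part in the member results was not tested.

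The arrays in which the NK receptors were high were partly shared. Fat control array 3 held the highest Klrk1, Klrd1, Klrb1c and Klra3 of all arrays, with the highest macrophage sum, 14791. Its Gzmb, 6.56, was the highest of the fat controls and below every fat knockout, and its Prf1, 11.97, was the lowest of the fat controls. Markers of CD8 T cells other than the members gave summed levels of 103 to 142 in spleen, 125 to 250 in the fat controls and 126 to 408 in the fat knockouts, where array 3 was the highest. These 4 markers include Eomes, which is also among the NK markers and was highest in the same fat knockout array. The CD8 sum is thus not separate from the NK sum. The summed level of mast cell and basophil markers was 250 to 360 in spleen, 3935 to 6202 in the fat controls and 1392 to 4083 in the fat knockouts. Of that list Cpa3 was detected in the fat controls (5.44 to 6.77) and in no fat knockout, and Ms4a2, Tpsb2 and Mcpt8 were undetected in every array. Cpa3 makes up little of the sums in fat, which come mostly from other genes of the list. Of its 10 genes 4 passed the filter. Limma called 2 of these 4 higher in fat in controls and 1 in knockouts, and 0 lower, where 6.44% and 5.78% of all genes were called. The part of these cells in the member results was not tested.

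**Figure D4:**
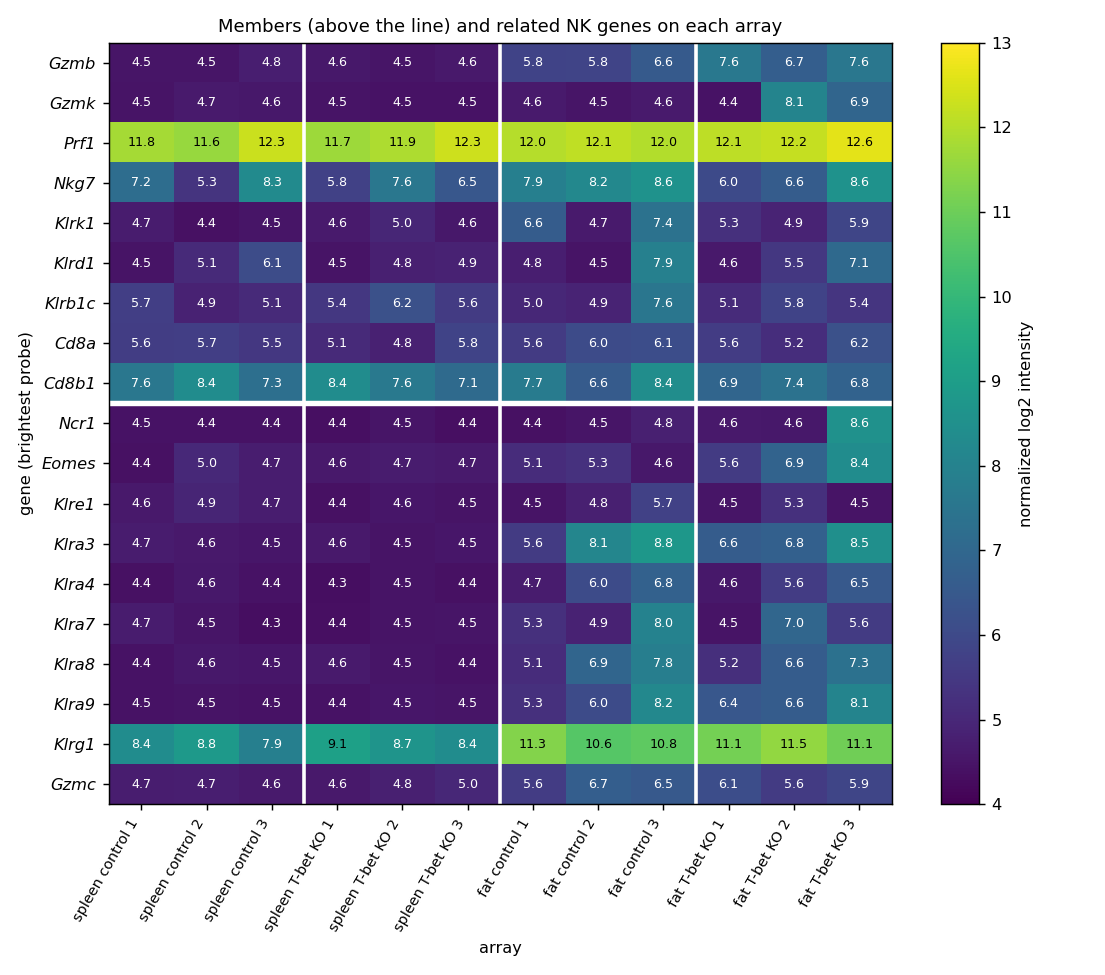
Normalized log2 intensity (colour and printed value) of the brightest probe of 9 members, above the line, and 10 related genes, below it, on each of the 12 arrays (columns, grouped by white lines). The Klra genes are dark in all spleen columns, fat control array 3 is bright for most NK receptors, and Ncr1 is bright in fat knockout array 3 alone, at 8.56.

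For each member the genes with the most similar profile over the 12 arrays were found by the root mean square (RMS) difference of log2 values centred on each gene's mean. For Gzmb these were Bcl3, Nup98 and Crip2, at 0.43, 0.45 and 0.46, where the SD of Gzmb itself was 1.22. For Klrk1 they were Dhdh, Mmp25 and Tppp3 (0.37 to 0.38), for Klrd1 Gpt2, Chn2 and Cd209d (0.40 to 0.42) and for Klrb1c Serpina3f, Adcy3 and Hip1 (0.28 to 0.33). Nkg7 was closest to Rbmx, Ginm1 and Ccl5 (0.60 to 0.64), and Prf1 to Acsm3, Rhbdl2 and Cep112 (0.13 to 0.16) at an SD of 0.29. Cd8a was closest to Pcnp, Gmnc and Mgat4e, and Cd8b1 to Efl1, Vamp8 and Pex7. None of these nearest genes was another member.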

How the data were processed

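RNA of cells labelled regulatory T cells was amplified with NuGEN Ovation Pico WTA and hybridised to Illumina bead arrays, per the labels' protocols. The authors deposited linear bead intensities, not normalized, with a detection p-value per probe, and a normalized intensity table used here as an alternative. GenomeStudio is named in the submitters' processing notes, with no version.

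Background was removed with nec (limma 3.58.1, R 4.3.3, offset 16, negative controls inferred from detection p-values), followed by quantile normalization and log2. Of 45281 probes 20367 were kept, and the probe of a gene with the highest mean gave 10025 genes. A limma model of 4 group means was fitted to all 12 arrays, with Benjamini-Hochberg adjustment over all genes and calls below 0.05, and was tested on simulated data. The number of arrays limits the precision. A fold is "at least" where the dim group was undetected, and uses the lowest detected signals in its place. It bounds the difference of mean levels in this processing and does not cover the scatter of the arrays or the alternatives. Alternatives changed the background correction, scaling, filter, probe rule, variance model, block and arrays used.

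Arrays with 1 replicate number share a slide by their labelled names, and place on the slide and group cannot be told apart. Deviations from group means of same-numbered arrays correlated at −0.05 to 0.35, above 0.1 in 4 of 18 pairs. The genes and lists were chosen with earlier results of these data known. Named genes are the members, up to 4 called genes per list and comparison by size of difference (or 2 by p if none was called), Tbx21, Foxp3 and 3 nearest profiles per member, and markers are named for their levels.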

Additional observations from a re-analysis of the deposited data

How the results depend on the processing

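Gzmb was the member whose call in control mice depended on the processing. The count of members called there, 1, became 0 with no background correction, with normexp without negative controls, with the authors' normalized table, with trend and robust eBayes and with only the 2 groups compared. Over the arrays left out in turn it ran from 0 to 2: 0 without spleen control 1 or 2 or fat control 3, and 2 without fat control 2, where Klrk1 was added. In the mean of both genotypes the 1 member became 2 with cyclic loess, and ran from 1 to 2 over the arrays left out, with 2 without fat control 2. The 19 related genes called in controls became 10 with only the 2 groups compared and ran from 12 to 22 over the arrays left out. The 21 in knockouts ran from 11 to 23. These alternatives on related genes and ligands were added after seeing the data. Of the related genes and ligands named with a call, 9 of 18 in controls and 11 of 19 in knockouts kept it in all alternatives run. Srgn in knockouts was not among these 19. A block for the slide, the pairing of the replicate numbers, changed no count of members called (adjusted p of Gzmb in controls 0.0219). No called value changed sign, while 45 of 1285 values of uncalled members did. The share of called genes that were higher in fat was 56.8% in controls, against 68.3% with cyclic loess and 73.8% with median scaling, and 58.7%, 68.7% and 77.1% in knockouts. Levels near 4.83 to 5.53 cannot show a difference. The causes were not tested.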
